A study of Mus musculus with 6 samples.

Results

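The 10 genes described here are Cdk6 and the core machinery of G1, the phase of the cell cycle before DNA replication. They are the kinases Cdk6, Cdk4 and Cdk2, the D-type cyclins Ccnd1, Ccnd2 and Ccnd3, the kinase inhibitors Cdkn1b, Cdkn2c and Cdkn2d, and the retinoblastoma gene Rb1. They were chosen by name, with earlier results of these data known. Every probe set that the platform annotation gives to 1 of them and to no other gene was taken. These were 27 of 45037 probe sets and 10 of 18193 named genes. Cdk6 was picked because it was much lower in old than in young cells. Its values are therefore a description with no test, and it is left out of all counts of calls below. Messenger RNA was measured on 6 arrays, 1 sample per array, of neural stem cells, the brain cells that renew themselves and form neurons and glia. The mice were of the inbred strain C57BL/6JRj. There were 3 arrays of old cells, from mice of 9 months, and 3 of young cells, from mice of 6 weeks, with no other genotype or treatment given in the labels. Nothing in the labels says that replicates are separate animals or cultures, so p-values reflect only the scatter among these arrays, possibly technical. The brain region and any culture of the cells are not stated in the labels either.

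A cell in G1 decides whether to divide again or to leave the cycle. D-type cyclins bind Cdk4 and Cdk6, and the active kinases phosphorylate the retinoblastoma protein, which then releases the E2F transcription factors. Cyclin E with Cdk2 continues that phosphorylation, and the E2F factors turn on the genes of DNA replication. Proteins of the INK4 family, among them the products of Cdkn2c and Cdkn2d, block Cdk4 and Cdk6, while the p27 protein made by Cdkn1b blocks cyclin and Cdk2 complexes. In the brain, Cdk6 and Ccnd2 are known from mouse mutants to be needed for the expansion of adult neural progenitors.

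Levels are log2 values per probe set, background-corrected and normalized between arrays with GCRMA by the authors. The lowest value on every array was 2.14, which held 38.3 to 40.3% of the probe sets. Log2 4 stands in for background, since no detection calls were used here, and a probe set counted as measured where it exceeded log2 4 on at least 3 of the 6 arrays. By this filter 22 of the 27 probe sets were measured and all 10 genes kept at least 1, while 5 probe sets were dim. Of the 19858 measured probe sets of the whole array, limma called 36.6% at an adjusted p under 0.05, with 16.5% lower and 20.1% higher in old cells. Young replicate 2 stood apart from the other young arrays on the second principal component, which held 9.93% of the variance. Over the 18 hybridisation controls, RNA spiked in at a fixed amount, the mean was log2 12.20 to 12.39 on old arrays, against 12.92 to 13.46 on young arrays (two-sided exact permutation p = 0.1, as low as 3 arrays against 3 allow). The 3' minus 5' value of the actin control, a sign of RNA quality, was 0.67 to 0.73 on old arrays, against 0.57 to 0.65 on young arrays (exact permutation p = 0.1, two-sided). The part of these array differences in the results below was not tested.

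The label of neural stem cells was checked against marker genes. Of 10 stem cell and radial glia markers 9 were measured, among them Sox2, Nes, Slc1a3 and Fabp7. Nes (log2 difference -0.46, limma, adjusted p = 0.00746) and Sox9 (-0.35, adjusted p = 0.00437) were lower and Msi1 was higher (0.52, adjusted p = 0.00712) in old cells, and the other 6 did not pass. The summed level of the list was log2 16.62 to 16.64 on old arrays and 16.69 to 16.72 on young arrays. Prom1 lay under log2 4 on all arrays. All 8 markers of microglia and blood cells were at 2.14 on every array. For comparison with the marker counts, limma called 40.6% of all 10050 measured genes, with 18.5% lower and 22.0% higher in old cells. Markers of other neural cells moved with age too. The lists of neuroblasts and neurons, of the oligodendrocyte lineage and of astrocytes had 5 measured genes each. Of 10 markers of neuroblasts and neurons 4 were lower and none higher in old cells, with a summed level of log2 13.84 to 13.88 on old arrays and 14.06 to 14.08 on young arrays. That sum is dominated by Map2, which did not pass, and the mean of the log2 levels was 4.43 to 4.57 on old arrays and 6.53 to 6.87 on young arrays. Tubb3 averaged 3.83 in old cells and 9.50 in young cells, and Dlx2 averaged 7.40 in old cells and 11.11 in young cells. Dlx5, Stmn2 and Rbfox3 of that list were at 2.14 on all 6 arrays. Of 8 markers of the oligodendrocyte lineage 3 were lower and none higher, with summed levels of 14.20 to 14.31 on old arrays and 14.26 to 14.36 on young arrays. Olig1 and Olig2 dominate that sum and did not pass, while the mean log2 level was 6.0 to 6.09 on old arrays and 7.56 to 7.74 on young arrays. Nkx2-2 averaged 2.26 in old cells and 10.51 in young cells. Sox10 and Mbp of that list were at 2.14 on all arrays. Of 6 astrocyte markers 3 were higher and none lower, with summed levels of 14.01 to 14.19 on old arrays and 14.04 to 14.12 on young arrays, and mean log2 levels of 8.25 to 8.70 on old arrays and 7.02 to 7.56 on young arrays. S100b averaged 10.03 in old cells and 7.10 in young cells, and Gjb6 was at 2.14 throughout. Of 6 endothelial markers 5 lay under log2 4 on all arrays and Flt1 was lower in old cells (summed levels of 5.59 to 6.11 on old arrays and 6.60 to 6.81 on young arrays). Of 8 markers of fibroblasts and mural cells 7 lay under log2 4 and Acta2 was lower (summed levels of 5.96 to 6.64 on old arrays and 6.87 to 7.51 on young arrays). Of 4 ependymal markers Foxj1 was higher and Ccdc153 lower in old cells, with summed levels of 6.34 to 7.01 on old arrays and 6.30 to 7.46 on young arrays. Among the called markers, Foxj1 passed the filter through the old arrays alone, and Nkx2-2 and Neurod1 through the young arrays alone. The filter thus required the ages to differ for these genes, and their calls are not a test. In bulk RNA, fewer cells of a type and less RNA per cell cannot be told apart. The part of these markers in the results on the G1 genes was not tested.

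The stretches before the start sites of Cdk6 and Cdk4 are shown because these kinases share the D-type cyclins as partners and were both lower in old cells, though by very different amounts. Each is the 250 bases upstream of the RefSeq start, 5′ to 3′ on the gene's strand, from mouse build GRCm38.p6. Cdk6 lies at chr5:3343643-3343892 on the plus strand and Cdk4 at chr10:127063285-127063534 on the plus strand. Capitals mark each E box, the letters CACGTG, which read the same on both strands and which proteins of the Myc family are known to bind.
Cdk6: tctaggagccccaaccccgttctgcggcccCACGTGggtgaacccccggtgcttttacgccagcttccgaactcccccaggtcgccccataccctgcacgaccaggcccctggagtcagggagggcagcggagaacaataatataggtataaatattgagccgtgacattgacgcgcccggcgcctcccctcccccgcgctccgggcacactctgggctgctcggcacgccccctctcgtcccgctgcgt
Cdk4: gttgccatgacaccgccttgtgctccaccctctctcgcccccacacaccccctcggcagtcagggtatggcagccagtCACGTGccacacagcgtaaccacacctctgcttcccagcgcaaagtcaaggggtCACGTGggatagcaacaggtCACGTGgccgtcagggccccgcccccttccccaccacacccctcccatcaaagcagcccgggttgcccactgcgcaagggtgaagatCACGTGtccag

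The Cdk6 stretch holds 1 E box, 220 bases before the start. The Cdk4 stretch holds 4, and the nearest lies 11 bases before the start. An E box occurs in 6.02% of the 32851 such stretches from RefSeq, and of the 9 stretches found for the G1 genes only these 2 do. Stretches were found for 7 of the 10 genes, and Ccnd1, Ccnd2 and Rb1 had none in the table. The E2F letters searched on both strands were TTTCCCGC, TTTGGCGC, TTTCGCGC and TTTGCCGC, present in 1.86% of all stretches. Among the G1 genes they occur in the Cdk2 stretch alone, 140 bases before its start. The GC box GGGCGG, on either strand, is in 7 of the 9 stretches and in 32.7% of all. It is absent from the Cdk6 stretch and occurs once in that of Cdk4, where it overlaps no E box. The letters TTTGAA, known as the CHR element of cell cycle genes, are in none of the 9 and in 16.0% of all stretches. These matches describe the letters of the window and show neither binding nor its absence.

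Cdk6, on chromosome 5, encodes the kinase that pairs with D-type cyclins alongside Cdk4. By probe set 1435338_at its level was 2.16, 2.14 and 2.14 on the 3 old arrays, against 8.25, 8.22 and 8.20 on the 3 young arrays. All old arrays thus lay at or beside the lowest value of the table, and the young arrays lay close together. Old cells averaged 2.14 ± 0.011 and young cells 8.22 ± 0.023 (log2, SD, n = 3 each). Since every old value was below log2 4, the level was at least 18.7-fold lower in old cells, computed from log2 4. Probe set 1455287_at read 2.14 on every old array, against 4.69, 6.48 and 6.89 on the young arrays. The young arrays differed widely here, with young replicate 1 lowest, and the bound was at least 4.05-fold lower in old cells. Without young replicate 1 it was at least 6.42-fold, and without young replicate 3 at least 3.0-fold. The third probe set, 1460291_at, was at 2.14 on the old arrays and at 2.14 to 2.19 on the young arrays, so it gave no signal above background at either age. The platform annotation ties the first and second probe sets to the same expressed sequence tag, and the third to the RefSeq messenger RNA. The low level in old cells thus rests on a pair of probe sets annotated to a single tag.

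**Figure D1:**
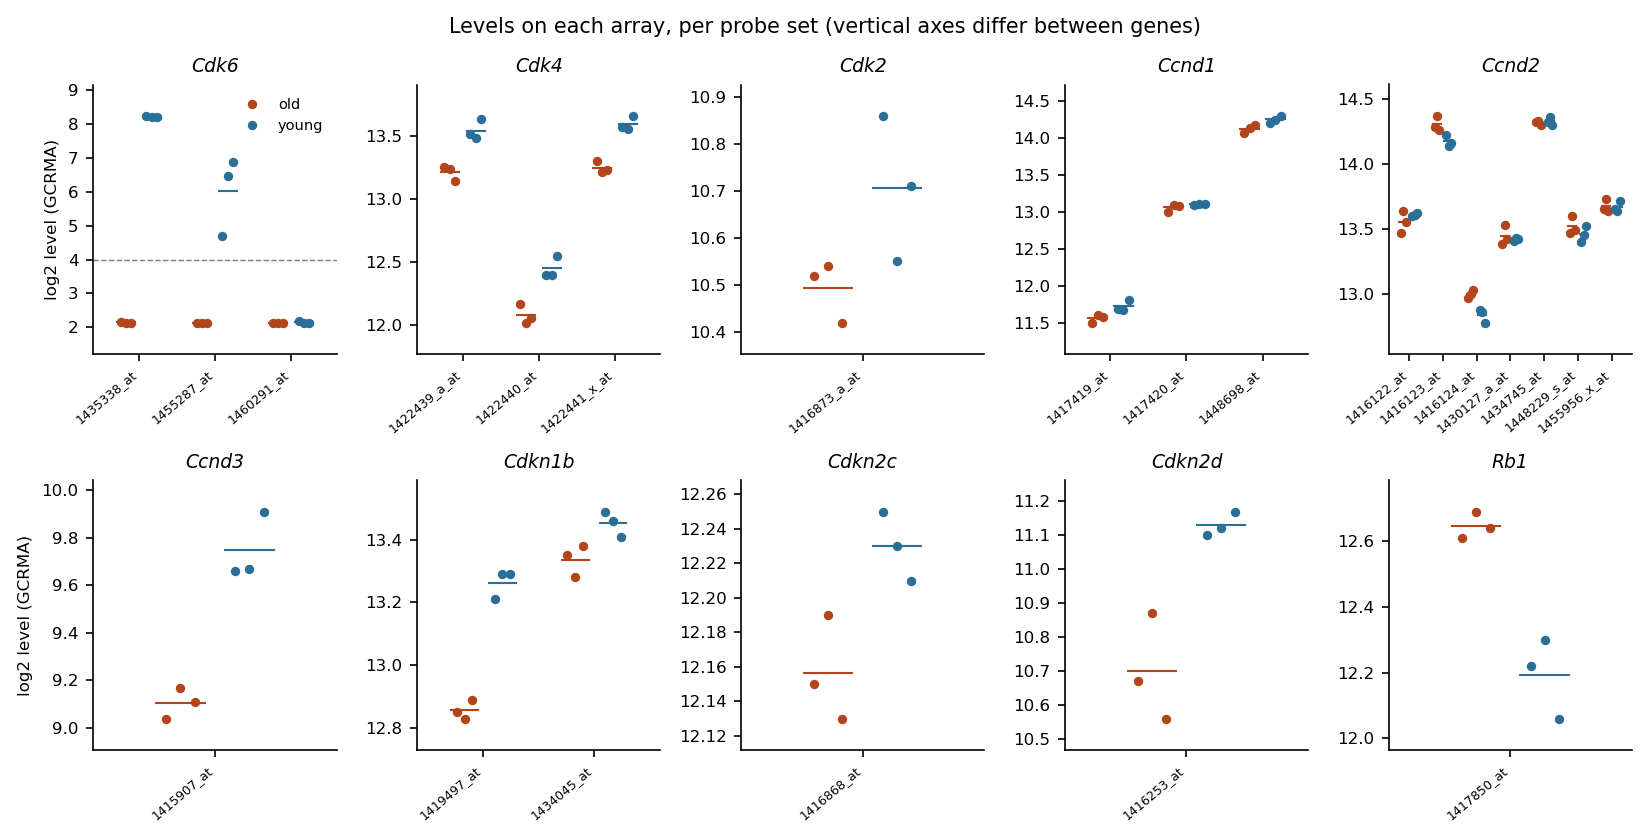
Log2 GCRMA level (vertical axis, scale differs between panels) on each of the 3 old (left of each pair) and 3 young arrays for every measured probe set of the 10 genes, and for all 3 probe sets of Cdk6. Points are arrays, short lines are group means, and the dashed line marks log2 4. Old Cdk6 values sit at 2.14 to 2.16 throughout, while the old arrays lie above the young ones for Rb1 and for 2 of the 7 Ccnd2 probe sets.

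Beside the low level of Cdk6, old cells had moderately lower levels of the kinase Cdk4, the cyclin Ccnd3 and the inhibitors Cdkn1b and Cdkn2d, at 0.643 to 0.796 times the young level where the test was passed. The substrate gene Rb1 was higher, at 1.37 times the young level. Ccnd1, Ccnd2, Cdk2 and Cdkn2c did not pass the test at any probe set. Of these 9 genes, 20 probe sets were measured. Of these 6 were lower and 1 was higher in old cells at an adjusted p under 0.05, and 13 did not pass. At an unadjusted p under 0.05 there were 9, or 45%, against 47.5% of all measured probe sets. The share called, 35.0%, lies near the 36.6% of all measured probe sets. Lower calls made up 30.0% of the 20 against 16.5% of all, and higher calls 5.0% against 20.1%. Old and young arrays did not overlap for 15 of the 20 probe sets, or 75.0%, against 55.3% of all. These shares count some genes several times, since Ccnd2 had 7 of the 20 probe sets and Cdk4 and Ccnd1 had 3 each. All 3 of Cdk4 are among the lower calls. The median log2 difference was -0.10, against 0.01 over all measured probe sets. The median size of the difference, regardless of sign, was 0.15 log2 units, against 0.25 over all. The lower calls came from 4 genes, namely Cdk4, Ccnd3, Cdkn1b and Cdkn2d, and the higher call from Rb1. Cdkn1b passed only at the dimmer of its 2 probe sets.

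**Figure D2:**
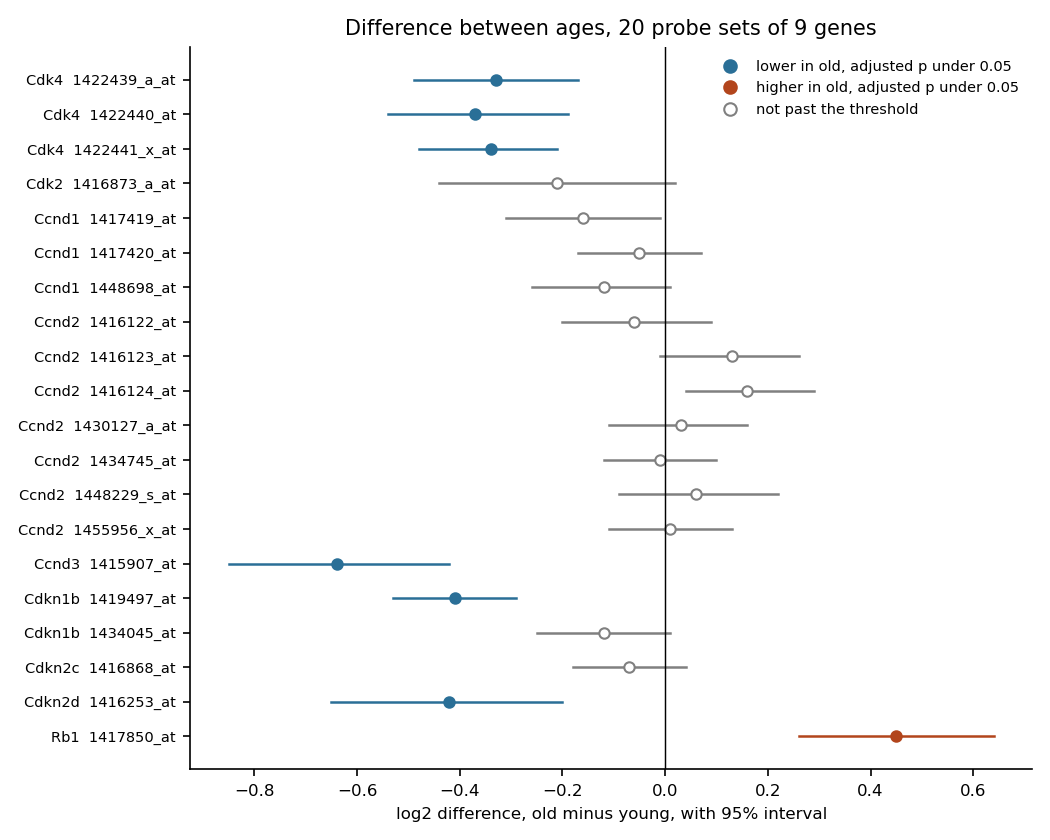
Log2 difference, old minus young (horizontal axis), of the 20 measured probe sets of the 9 genes other than Cdk6, with limma's 95% interval as a line. Filled points passed an adjusted p under 0.05. The 3 Cdk4 probe sets lie between -0.37 and -0.33, Ccnd3 lies at -0.64 and Rb1 at 0.45, while the 7 Ccnd2 probe sets lie from -0.06 to 0.16.

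Cdk4, on chromosome 10, is the close relative of Cdk6 and phosphorylates the same substrate. It was lower in old cells at all of its 3 probe sets. Probe set 1422440_at read 12.17, 12.02 and 12.06 on old arrays, against 12.40, 12.40 and 12.55 on young arrays. The ages did not overlap at any of the 3 probe sets. The log2 difference at 1422440_at was -0.37 with a 95% interval of -0.54 to -0.19, or 0.775 times the young level (limma, adjusted p = 0.0121). The differences were -0.33 at 1422439_a_at (adjusted p = 0.0121) and -0.34 at 1422441_x_at (adjusted p = 0.00639). All 3 probe sets are annotated to the same messenger RNA, so they are repeated readings of 1 transcript. The suffix x marks a probe set whose probes may also match other transcripts.

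Cdk2, on chromosome 10, is the kinase that works with cyclins E and A. Its measured probe set read 10.52, 10.54 and 10.42 on old arrays, against 10.86, 10.55 and 10.71 on young arrays. The old arrays were all below the young ones, but by only a small gap from young replicate 2. The log2 difference was -0.21 with a 95% interval of -0.44 to 0.02, and did not pass (limma, adjusted p = 0.125). Without young replicate 2 the difference was -0.29 and passed (adjusted p = 0.0414). The other Cdk2 probe set was at 2.14 on all 6 arrays.

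The D-type cyclins did not share a pattern. Ccnd3, on chromosome 17, was lower in old cells, with 9.04, 9.17 and 9.11 on old arrays, against 9.66, 9.67 and 9.91 on young arrays. The ages were well apart, with young replicate 3 highest. The log2 difference of -0.64, with a 95% interval of -0.85 to -0.42, corresponds to 0.643 times the young level (limma, adjusted p = 0.00396). The other 2 probe sets of Ccnd3 were at 2.14 on all arrays, so the call rests on a single probe set.

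Ccnd1, on chromosome 7, the cyclin best known as a target of growth factor signals, had 3 measured probe sets and none passed. Probe set 1417419_at read 11.50, 11.60 and 11.57 on old arrays, against 11.69, 11.67 and 11.81 on young arrays. Its log2 difference was -0.16 with a 95% interval of -0.31 to -0.01 (limma, adjusted p = 0.0896). At 1448698_at it was -0.12 (interval -0.26 to 0.01, adjusted p = 0.123) and at 1417420_at -0.05 (interval -0.17 to 0.07, adjusted p = 0.456). Every old array was below every young array at all 3, which read the same messenger RNA.

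Ccnd2, on chromosome 6, the D-type cyclin of adult neural progenitors, had 7 measured probe sets, the most of any gene here. None passed, and the log2 differences ran from -0.06 to 0.16, with 5 above and 2 below 0. The largest was at 1416124_at, which read 12.97, 13.00 and 13.03 on old arrays, against 12.88, 12.86 and 12.78 on young arrays. The old arrays were all above the young ones, and the difference of 0.16 had a 95% interval of 0.04 to 0.29 (limma, adjusted p = 0.0521). At 1434745_at the old arrays read 14.32, 14.33 and 14.30, against 14.32, 14.36 and 14.30 on the young arrays. The ages overlapped there and at 4 further probe sets, and the interval of the difference was -0.12 to 0.10. Old replicate 2 was the highest of the 6 arrays at 5 of the 7 probe sets. None of the 7 intervals reached a difference of the size seen for Ccnd3.

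Of the inhibitors, Cdkn1b, on chromosome 6, encodes p27, which holds cells in a resting state. Probe set 1419497_at read 12.85, 12.83 and 12.89 on old arrays, against 13.21, 13.29 and 13.29 on young arrays. The log2 difference was -0.41 with a 95% interval of -0.53 to -0.29, or 0.752 times the young level (limma, adjusted p = 0.00256). The other probe set, 1434045_at, had the same direction with -0.12 and did not pass (interval -0.25 to 0.01, adjusted p = 0.131). The intervals of the 2 probe sets do not overlap, so the size of the Cdkn1b difference depends on which is read. The annotation gives them different source sequences.

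Cdkn2d, on chromosome 9, an INK4 inhibitor of Cdk4 and Cdk6, read 10.67, 10.87 and 10.56 on old arrays, against 11.10, 11.12 and 11.17 on young arrays. The old arrays were all lower and more scattered than the young ones. The log2 difference was -0.42 with a 95% interval of -0.65 to -0.20, or 0.745 times the young level (limma, adjusted p = 0.0165). The call was lost without old replicate 1 (adjusted p = 0.0573) and without young replicate 3 (adjusted p = 0.0565). Cdkn2c, on chromosome 4, another INK4 inhibitor, read 12.15, 12.19 and 12.13 on old arrays, against 12.25, 12.23 and 12.21 on young arrays. Its log2 difference was -0.07, did not pass (limma, adjusted p = 0.258), and had an interval of -0.18 to 0.04.

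Rb1, on chromosome 14, encodes the substrate of these kinases and the brake on E2F factors. It was the only member called higher in old cells, with 12.61, 12.69 and 12.64 on old arrays, against 12.22, 12.30 and 12.06 on young arrays. The ages were apart by more than the spread within either. The log2 difference was 0.45 with a 95% interval of 0.26 to 0.64, or 1.37 times the young level (limma, adjusted p = 0.0077). The call rests on 1 probe set, since the other, annotated to a different sequence, was at 2.14 on all 6 arrays.

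The other genes of the pathway were then described from lists fixed by role, though with earlier results of these data known. The lists had 64 genes on the array, of which 59 were measured. A gene stands for its measured probe set with the highest mean. Of the 59, 16 were lower and 5 higher in old cells, or 27.1% and 8.47%. The 5 include Ccnb2, which passed the filter through the old arrays alone, so its call is not a test. Without Ccnb2 the shares were 27.6% and 6.9%. Of all 10050 measured genes limma called 40.6%, with 18.5% lower and 22.0% higher. The mitosis genes alone gave 8 of the 16 lower calls, so the lower share of the 59 does not describe the other lists. The median log2 difference of the 59 was -0.13, against 0.01 for all genes. Of the 21 calls, 13 held on leaving out any 1 array, with Ccnb2 counted among them. The 5 higher calls became 2 without old replicate 1 and 3 without old replicate 2, old replicate 3 or young replicate 2. Ccnb2 is counted in each of these, and the only other higher call among the 13 is E2f1. Of the 38 genes not called by their brightest probe set, 7 were called by another, namely Ccne1, Cdk7, Cdc25a, Cks1b, Gsk3b, Mcm2 and Rrm2.

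Among the other inhibitors, all 3 measured genes were lower in old cells. Cdkn2b, an INK4 inhibitor induced by TGF-beta, read 8.12, 8.73 and 8.98 on old arrays, against 9.95, 10.05 and 10.11 on young arrays. The log2 difference was -1.43 (limma, adjusted p = 0.00657). Cdkn2a, which encodes the INK4 protein tied to senescence and the p53 activator ARF, had a log2 difference of -0.71 (adjusted p = 0.00243). Cdkn1a, the p53 target gene for p21, was lower by this test too, with -0.21 (adjusted p = 0.0352), but the call was lost whichever array was left out. By the brightest probe set of each gene, 4 of the 6 measured inhibitor genes of both sets were lower, namely Cdkn2a, Cdkn2b, Cdkn1a and Cdkn2d, against 18.5% of all genes. The calls of Cdkn1a and Cdkn2d are the ones lost on leaving out arrays. Cdkn1b was lower only by the dimmer of its 2 probe sets and is not among the 4. Cdkn1c was at 2.14 on all arrays.

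Of the E2F and DP factors, which act downstream of Rb1, 2 of 9 measured genes were higher and 1 was lower. These shares, 22.2% higher and 11.1% lower, compare with 22.0% and 18.5% of all genes. E2f1, an activator of S phase genes, read 10.28, 10.09 and 10.22 on old arrays, against 9.64, 9.33 and 9.13 on young arrays. Its log2 difference was 0.83 (limma, adjusted p = 0.00842). E2f7, a repressor that is itself an E2F target, had one of -1.0 (adjusted p = 0.0028), and old and young arrays did not overlap for either gene. Tfdp2, a partner of E2F proteins, had one of 0.23 (adjusted p = 0.0148), lost without old replicate 1 or old replicate 3. E2f6 had 0.25 and did not pass (adjusted p = 0.0729). Neither of the other pocket proteins passed, with Rbl1 at 0.09 (adjusted p = 0.431) and Rbl2 at -0.16 (adjusted p = 0.259).

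The cyclins that act with Cdk2 went different ways. Ccne2 read 11.98, 11.88 and 11.66 on old arrays, against 11.46, 11.24 and 11.14 on young arrays. Its log2 difference was 0.56 (limma, adjusted p = 0.0194), a call lost without old replicate 1, old replicate 2, young replicate 2 or young replicate 3. Ccne1 had 0.17 at its brightest probe set, which did not pass (adjusted p = 0.106), and 0.30 at another, which did (adjusted p = 0.036). Ccna2, the cyclin of S phase and G2, had -0.25 (adjusted p = 0.0254), a call that held only without old replicate 1 among the fits on 5 arrays, and -0.54 at its other probe set (adjusted p = 0.00667). Of 5 genes that activate or mature the kinases none passed by its brightest probe set, though Mnat1, a subunit of the CDK-activating kinase, had -0.32 (adjusted p = 0.0692), and the phosphatase Cdc25a -0.24 (adjusted p = 0.0574). At another Cdc25a probe set the difference was -0.81 (adjusted p = 0.0434). Another probe set of Cdk7, the CDK-activating kinase itself, had 0.44 (adjusted p = 0.00306), against 0.13 at its brightest (adjusted p = 0.199).

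Upstream, Myc, a transcription factor that drives growth and entry into the cycle, had a log2 difference of -0.42 (limma, adjusted p = 0.0069). It read 10.86, 10.85 and 11.02 on old arrays, against 11.29, 11.31 and 11.39 on young arrays. Its relative Mycn was too dim to be tested, at 2.33 to 2.79 on old arrays and 3.68 to 5.81 on young arrays. Gsk3b, a kinase that marks cyclin D1 and Myc for degradation, had -0.13 at its brightest probe set, which did not pass (adjusted p = 0.0694), and -0.17 (adjusted p = 0.0338) and -0.30 (adjusted p = 0.00874) at 2 others, which did. Of 7 genes for the degradation of p27 and the cyclins, 1 was higher and 1 lower. That is 14.3% each, against 22.0% higher and 18.5% lower of all genes. Fbxw7, which targets cyclin E, had 0.17 (adjusted p = 0.0406), and Ambra1, which targets D-type cyclins, had -0.26 (adjusted p = 0.0418). The Fbxw7 call was lost in each fit on 5 arrays, and the Ambra1 call in each except that without young replicate 3. Cks1b, a cofactor of Skp2 in p27 degradation, had -0.12 at its brightest probe set (adjusted p = 0.234) and -0.28 at another, which passed (adjusted p = 0.0202). Of the 5 measured genes of the MuvB complex and its partner Mybl2 none passed.

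Of 14 E2F target genes of S phase 1, or 7.14%, was lower and none higher, with a median of -0.15. Of all measured genes 18.5% were lower and 22.0% higher. The lower target gene was Mcm7, a helicase subunit, with -0.36 (limma, adjusted p = 0.00496). Its 3 further probe sets were lower as well, with differences from -0.33 to -0.26. By a dimmer probe set, the helicase subunit Mcm2 (-0.39, adjusted p = 0.0322) and the ribonucleotide reductase subunit Rrm2 (-0.51, adjusted p = 0.0312) passed as well, against -0.24 (adjusted p = 0.0779) and -0.06 (adjusted p = 0.319) by their brightest. Pcna, the sliding clamp of replication, had -0.16 and did not pass (adjusted p = 0.0741). Of 9 measured mitosis genes 8, or 88.9%, were lower and 1 higher, with a median of -0.55. They included Cdc20 with -0.67 (adjusted p = 0.00384), Top2a with -0.40 (adjusted p = 0.00706) and Plk1 with -0.65 (adjusted p = 0.00834). The mitotic cyclin Ccnb2 was the exception, with 9.97, 9.96 and 9.85 on old arrays, against 2.92, 2.83 and 3.24 on young arrays. By its only measured probe set it was at least 60.8-fold higher in old cells. Ccnb2 passed the filter through the old arrays alone, so the filter itself required the ages to differ and its call is not a test. It was the only pathway gene of that kind. Without it, 16 of 58 pathway genes were lower and 4 higher, and all 8 other mitosis genes were lower. Among these 8, the Mki67 call was lost without any 1 of the old arrays or young replicate 3. The Bub1 call was lost without young replicate 3. Mki67, Bub1 and Aurkb were also not called without the filter, nor was Mki67 with the replicate number as a block. The part of this shift in mitosis genes in the results on the G1 members was not tested.

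**Figure D3:**
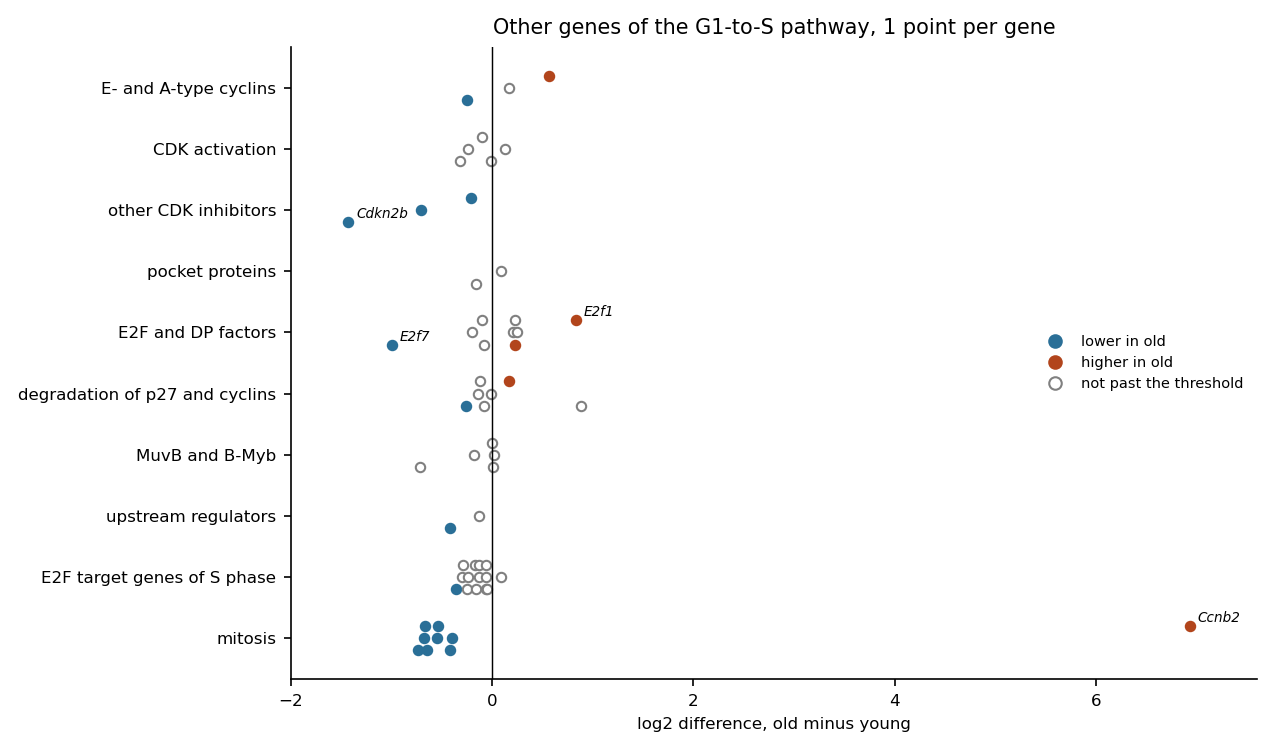
Log2 difference, old minus young (horizontal axis), of the 59 measured pathway genes, 1 point per gene, grouped by role. Filled points passed an adjusted p under 0.05. Cdkn2b lies at -1.43, E2f1 at 0.83 and E2f7 at -1.0, 8 of 9 mitosis genes lie below 0, and Ccnb2 lies at 6.93, a fitted value that starts from background in young cells.

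The genes most like Cdk6 were found by the root mean square difference of log2 levels over the 6 arrays, after each gene's brightest measured probe set was centred on its own mean. The nearest 5 were Grb10, Dock3, Slc22a29, Prrx1 and Bcl11a, at 0.182, 0.187, 0.20, 0.224 and 0.227 log2 units. Grb10, an imprinted adaptor of the insulin receptor, averaged 2.15 ± 0.020 in old cells and 8.31 ± 0.329 in young cells (log2, SD, n = 3 each). Bcl11a, a zinc-finger transcription factor, averaged 2.24 ± 0.177 in old cells and 8.63 ± 0.212 in young cells. Dock3 differed from the rest in staying above log2 4 in old cells, at 5.16 ± 0.114, against 10.93 ± 0.141 in young cells. This likeness follows mostly from the difference between ages, which selected Cdk6, and is given as a description. By these probe sets, Cdk6, Grb10, Slc22a29, Prrx1 and Bcl11a passed the filter through the young arrays alone. The filter thus required the ages to differ for them. The probe set of Slc22a29 carries the suffix x.

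**Figure D4:**
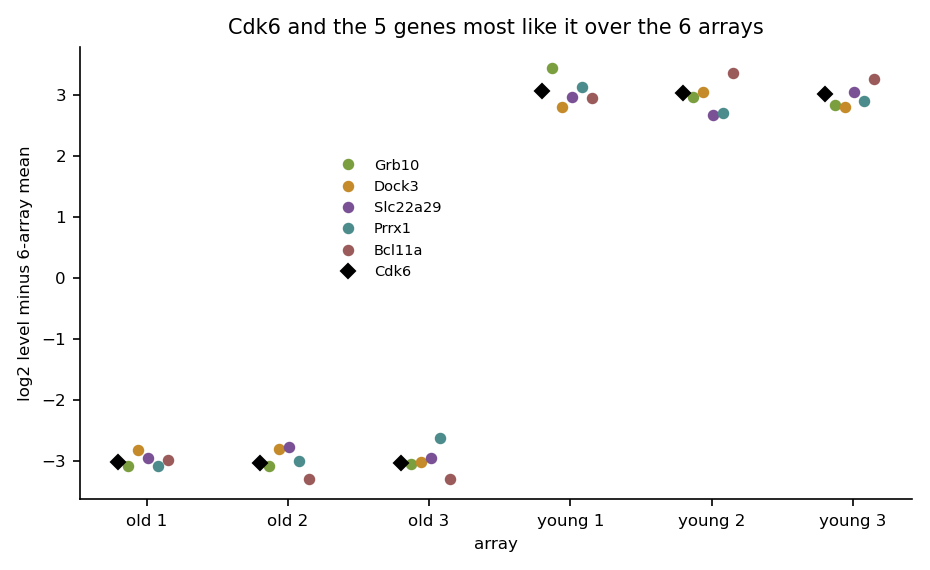
Log2 level minus each gene's mean over the 6 arrays (vertical axis) for Cdk6 (diamonds) and the 5 genes most like it (circles), on the 3 old and then the 3 young arrays. Points are arrays, shifted sideways to show each gene. All 6 genes lie near -3 on the old arrays and near 3 on the young arrays, since each was chosen for likeness to Cdk6.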

How the data were processed

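The extraction kit was NucleoSpin XS, and total RNA was labelled with biotin, per the labels' protocols. The deposited values are log2 levels per probe set, made by the authors with GCRMA per the submitters' processing notes. Its version and the array's genome build: not given in the sources used here. That the scale is log2 follows from the range of the values. GCRMA places dim probe sets close to 1 value, so the size of a difference out of that floor is uncertain and the spread of replicates there is too small.

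Names came from the platform annotation, updated by Entrez identifiers through RefSeq (99.1% matched, 0 symbols changed). Of the probe sets other than 64 controls, 34945 had 1 symbol, 932 several and 9160 were unnamed here. Probe sets above log2 4 on at least 3 arrays, 19858 in all, were fitted together in limma 3.58.1 under R 4.3.3, by lmFit and eBayes. Tests were two-sided, and p-values were adjusted by Benjamini-Hochberg across the whole set. There were 4 residual and 1.47 prior degrees of freedom. Figures used matplotlib 3.10.9 in Python 3.11.15. The test was tried on simulated data. The precision is limited by the number of arrays.

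The members, lists and tests were chosen with earlier results of these data known. The genes named are the 10 members, up to 4 genes of each list with the smallest p, the 5 most like Cdk6 and markers. Other named genes were chosen after their values were seen. Other filters, scalings, weights, variance priors and thresholds, a replicate block, the mean of a gene's probe sets and leaving out each array were tried.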

Additional observations from a re-analysis of the deposited data

How the results depend on the processing

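Over the alternatives, Ccnd3, Rb1, Cdkn1b at 1419497_at and Cdk4 at 1422441_x_at kept their direction and their side of the threshold, with adjusted p of at most 0.0205, 0.0347, 0.0204 and 0.0335 in limma. Cdkn2d also lost its call without the filter (limma, adjusted p = 0.061), where more probe sets are tested. The pathway calls without the filter were 11 lower and 4 higher. At an adjusted p under 0.01, the lower calls among the 9 genes numbered 3, the pathway calls 8 lower and 2 higher, and those of the whole array 1629 lower and 2148 higher. The higher calls among the 9 genes numbered 2 with the log2 6 filter, with quantile normalization again and with array weights, which added Ccnd2 at 1416124_at, and 3 by eBayes with trend and robust options, which gave 8 lower calls among them and 8 higher pathway genes. The lower calls added by these eBayes options were Ccnd1 at 1448698_at (limma, adjusted p = 0.0153) and Cdkn1b at 1434045_at (adjusted p = 0.0302). The higher calls they added were Ccnd2 at 1416123_at (adjusted p = 0.014) and 1416124_at (adjusted p = 0.00967). Cdk6 at 1455287_at was not kept by the log2 6 filter. The causes were not tested. On leaving out 1 array, the counts among the 9 genes ran from 5 to 7 lower and stayed at 1 higher. The pathway counts ran from 12 to 17 lower and 2 to 5 higher, with Ccnb2 always among the higher. Those of the whole array ran from 2177 (without old replicate 2) to 3301 lower and 2768 to 3961 higher.

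Differences of Ccnd2 near 0 changed sign. At 1430127_a_at it ran from -0.0171 (without old replicate 2) to 0.0569 on leaving out 1 array. At 1434745_at it was 0.00288 with array weights, and ran from -0.0263 to 0.00639 (without young replicate 2) on leaving out 1 array. At 1455956_x_at it was -0.000241 with arrays centred on their median, and on leaving out 1 array ran from -0.0171 (without old replicate 2) to 0.0311, with -0.00116 without young replicate 2.

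The replicate numbers gave no visible sign of pairing, though 3 arrays per age are too few to settle it. Deviations from the group means correlated at -0.16, -0.11 and 0.16 between same-numbered arrays, and at -0.22 to 0.25 between the others. With the replicate number as a block, 4 probe sets of the 9 genes were lower and 1 higher. Cdk4 at 1422439_a_at (limma, adjusted p = 0.0575) and Cdkn2d (adjusted p = 0.0503) were not called. In that fit 12 pathway genes were lower, against 16 in the main fit, and 3 were higher, with Ccnb2 among the 3.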

Other observations

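The measured neighbours of Cdk6 on chromosome 5 were looked at after its values were seen. By the RefSeq gene order, 3 of the 5 protein-coding genes that follow it were measured. Fam133b averaged 12.04 ± 0.0122 in old cells and 11.92 ± 0.0858 in young cells (log2, SD, n = 3 each), and did not pass (limma, adjusted p = 0.173). Rbm48 averaged 10.73 ± 0.071 in old cells and 10.80 ± 0.0843 in young cells (adjusted p = 0.422). Gatad1 was higher in old cells, with a log2 difference of 0.25 (adjusted p = 0.0189). None of the 3 was lower in old cells at an adjusted p under 0.05, and the 5 protein-coding genes on its other side had no probe set of 1 symbol.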
